A study of Mus musculus with 9 samples.

Results

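The renin-angiotensin system was followed in mouse kidney through 8 listed genes, Ren1, Agt, Ace, Enpep, Agtr1a, Agtr1b, Mas1 and Atp6ap2. They were taken by symbol from the annotation of the array, using rows that carry a single gene symbol. Of these 8, 7 have such a row among the 22180 genes measured, each of them exactly 1 row. Ren1, the gene of renin itself, has no single-symbol row in the annotation used and was not analysed here.

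The hormone angiotensin II raises blood pressure and drives salt retention in the kidney. Renin, from the juxtaglomerular cells of the afferent arteriole, cuts angiotensinogen to angiotensin I, and angiotensin-converting enzyme trims that to angiotensin II, which acts through its type 1 receptor on vessels, mesangial cells and tubules. The proximal tubule carries angiotensin-converting enzyme and aminopeptidase A on its brush border, and its cells can make angiotensinogen, so that the peptide is formed and broken down within the kidney.

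The kidneys came from 3 groups of 3 mouse samples each, all taken 3 weeks after an operation. The sham group was operated without ligation. In the CBDL group the common bile duct was tied off, which retains bile and leads to cholemic injury of the kidney. The third group received the side-chain-shortened bile acid norursodeoxycholic acid (norUDCA) for 5 days before the same ligation and is called norUDCA-fed CBDL, and the labels do not state whether feeding went on afterwards. No strain, age, sex or other allele is given in the labels, and no sham group fed norUDCA was among the samples. The labels do not say that replicates are separate animals, so the p-values reflect sample-to-sample spread that may be technical.

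Values are log2 signals, in which 1 unit is a 2-fold difference, and they are compared for the same gene between arrays and not between genes. The words rose, fell and called are kept for genes whose limma p, adjusted by Benjamini-Hochberg over 22180 genes, was under 0.05. Of 14 listed proximal tubule markers 13 were measured. Their median log2 signal lay between 12.14 and 12.28 on the sham arrays, 10.37 and 11.40 on the CBDL arrays and 11.93 and 12.10 on the norUDCA-fed CBDL arrays. Array medians lay between 5.7 and 5.79. The first principal component over all genes held 58.3% of the variance. It ran from -42.19 to -34.12 in sham, from -6.63 to 0.52 in norUDCA-fed CBDL and from 26.14 to 57.00 in CBDL. A place of norUDCA-fed CBDL between the other groups is therefore the main pattern of the whole series and not particular to the genes below. The second principal component, with 13% of the variance, placed the other 7 arrays between 3.42 and 12.03 and set 2 arrays away from them, sham_159 (-34.54) and CBDL_165 (-22.91).

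Start-site sequences of the genes for the converting enzyme and aminopeptidase A, which fell together after ligation, are shown with that of angiotensinogen, which was not called in any comparison. Each window runs from 250 bases before to 50 bases from the transcription start, 5′ to 3′, as given by RefSeq for build GRCm38.p6, and 7 of the 8 listed genes have a window. Capitals mark matches to any of 4 motifs, searched on both strands. The TATA box was searched as TATAAA. The CCAAT box was searched by the letters in its name. The GC box was searched as GGGCGG. The half-site of the tubular factor HNF1 was searched as GTTAAT. The windows lie at chr11:105967698-105967997 on the plus strand for Ace, chr3:129332700-129332999 on the minus strand for Enpep and chr8:124569657-124569956 on the minus strand for Agt.
Ace: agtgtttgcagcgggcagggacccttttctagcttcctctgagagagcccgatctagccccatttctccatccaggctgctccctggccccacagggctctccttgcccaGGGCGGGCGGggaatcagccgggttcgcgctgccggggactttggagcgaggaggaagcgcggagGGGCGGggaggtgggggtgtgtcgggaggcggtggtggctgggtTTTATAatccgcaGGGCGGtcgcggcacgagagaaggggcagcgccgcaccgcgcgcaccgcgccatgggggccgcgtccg
Enpep: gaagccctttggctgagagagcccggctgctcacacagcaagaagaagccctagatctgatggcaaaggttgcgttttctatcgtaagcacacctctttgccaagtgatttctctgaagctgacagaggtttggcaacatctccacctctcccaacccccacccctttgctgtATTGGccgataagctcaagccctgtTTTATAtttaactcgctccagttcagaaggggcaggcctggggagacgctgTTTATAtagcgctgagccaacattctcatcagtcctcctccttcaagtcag
Agt: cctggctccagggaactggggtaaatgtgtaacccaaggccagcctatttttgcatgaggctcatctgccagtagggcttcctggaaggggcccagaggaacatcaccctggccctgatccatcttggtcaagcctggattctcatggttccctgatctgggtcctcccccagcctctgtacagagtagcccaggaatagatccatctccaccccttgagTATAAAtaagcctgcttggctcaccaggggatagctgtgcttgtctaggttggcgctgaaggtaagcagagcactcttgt
The Ace window has a GC content of 69.7% and holds 4 GC boxes, of which the pair beginning 140 and 136 bases before the start overlap, and 1 TATA box on the reverse strand beginning 31 bases before the start. Enpep has a GC content of 51.3%, no GC box, 1 CCAAT box and 2 TATA boxes, all on the reverse strand. In Agt there is 1 TATA box on the forward strand, beginning 30 bases before the start. Among all 32851 windows, 13.6% hold a TATA box, 37.4% a CCAAT box, 35.7% a GC box and 7.1% the HNF1 half-site, which is in none of the 3 windows shown. A second Ace window in the same table, at chr11:105974939-105975238, is not shown. Such letter matches describe the windows and do not show a site in use.

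After ligation, Ace, Enpep, Agtr1a and Mas1 fell, none of the 7 measured genes rose, and Agt, Agtr1b and Atp6ap2 did not pass the test. Across all genes 21.8% were called in CBDL against sham, 10.3% higher and 11.5% lower, and 33.3% had an unadjusted p under 0.05. The median difference of the 7 genes was -0.76, beside -0.06 over all genes tested. That median is the value of Mas1, a dim gene, which was -0.58 with array weights and -0.41 without sham_159 and CBDL_165. The arrays of the CBDL and sham groups did not overlap for 5 of the 7 genes, where 35.6% of all genes did not overlap.

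**Figure D1:**
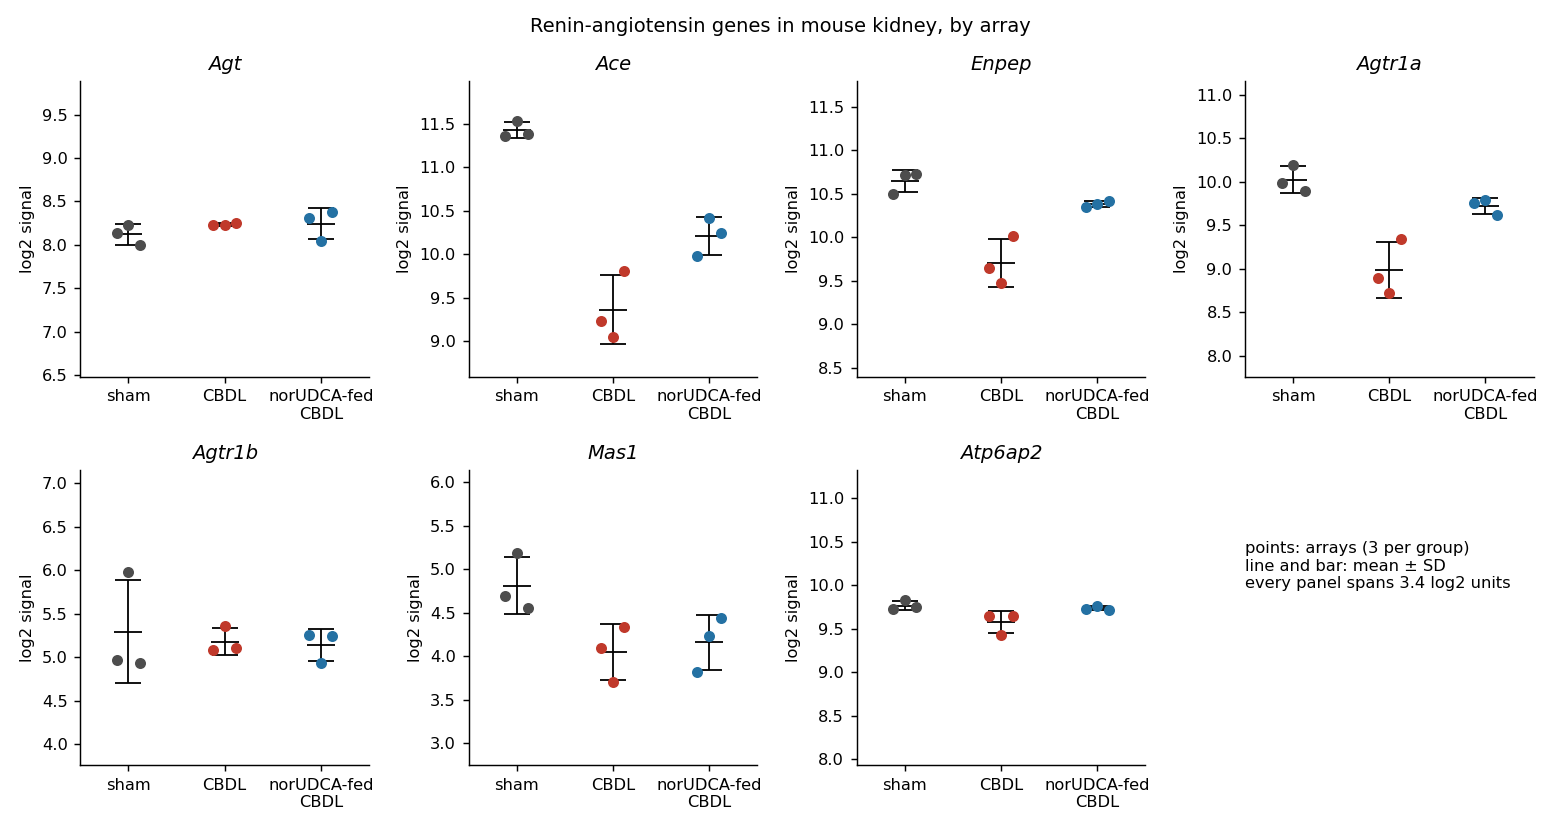
Log2 signal of the 7 measured renin-angiotensin genes on each of the 9 arrays, by group. Points are arrays, and the line and bar give the mean and SD over 3 arrays. Ace, Enpep and Agtr1a are lowest on the CBDL arrays and between the other groups on the norUDCA-fed CBDL arrays, while Agt stays between 7.99 and 8.38.

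Agt encodes angiotensinogen, the substrate of the whole pathway. Its signals were 8.14, 8.23 and 7.99 in sham, 8.23, 8.23 and 8.25 in CBDL and 8.31, 8.04 and 8.38 in norUDCA-fed CBDL. The 3 groups overlap, and the difference between CBDL and sham was 0.12 (SE 0.11, 95% confidence interval -0.13 to 0.37, adjusted p = 0.516).

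Ace encodes angiotensin-converting enzyme, which forms angiotensin II and also degrades bradykinin. On the sham arrays it read 11.36, 11.53 and 11.38, on the CBDL arrays 9.23, 9.05 and 9.81, and on the norUDCA-fed CBDL arrays 9.99, 10.41 and 10.24. No 2 groups overlap, and each CBDL array lies under each norUDCA-fed CBDL array, which in turn lies under each sham array. Ace went from 11.43 ± 0.09 in sham to 9.37 ± 0.40 in CBDL (SD, n = 3 each), a difference of -2.06 (SE 0.19, adjusted p = 8.41e-05) or 4.17-fold lower. In norUDCA-fed CBDL it was 10.21 ± 0.22 (SD, n = 3), higher than in CBDL by 0.85 (SE 0.19, adjusted p = 0.0278) or 1.80-fold. It was still lower than in sham, by -1.21 (SE 0.19, adjusted p = 0.0102) or 2.32-fold.

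Enpep encodes aminopeptidase A, which removes the first residue of angiotensin II to give angiotensin III. Sham arrays had 10.50, 10.72 and 10.73, CBDL arrays 9.65, 9.47 and 10.01, and norUDCA-fed CBDL arrays 10.35, 10.39 and 10.42. The 3 norUDCA-fed CBDL arrays lie close together, above all CBDL arrays and just under all sham arrays. Ligation was accompanied by a difference of -0.94 (SE 0.14, adjusted p = 0.00105), a 1.91-fold lower signal. Between norUDCA-fed CBDL and CBDL the difference was 0.68 (SE 0.14, adjusted p = 0.0213), and between norUDCA-fed CBDL and sham it was -0.26 (SE 0.14, 95% confidence interval -0.57 to 0.05, adjusted p = 0.391).

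Agtr1a encodes the main type 1 receptor of angiotensin II in the rodent kidney. Its signals were 9.99, 10.20 and 9.89 in sham, 8.89, 8.72 and 9.34 in CBDL and 9.76, 9.80 and 9.62 in norUDCA-fed CBDL. As with Enpep, the groups do not overlap and the norUDCA-fed CBDL arrays lie nearer to sham. The receptor transcript was 2.06-fold lower in CBDL than in sham, a difference of -1.04 (SE 0.16, adjusted p = 0.00122). It was higher in norUDCA-fed CBDL than in CBDL by 0.74 (SE 0.16, adjusted p = 0.0249), and its difference from sham was -0.30 (SE 0.16, 95% confidence interval -0.66 to 0.05, adjusted p = 0.386).

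Agtr1b, the second rodent copy of that receptor gene, best known from adrenal and pituitary, read 4.96, 5.98 and 4.94 in sham, 5.08, 5.35 and 5.10 in CBDL and 5.26, 4.93 and 5.24 in norUDCA-fed CBDL. Apart from sham_159 the arrays lie within a narrow range, and 33.4% of all genes were dimmer on average. CBDL minus sham was -0.11 (SE 0.25, adjusted p = 0.79), and without sham_159 it was 0.23 (adjusted p = 0.305). Signal above background is not shown at this level, so the receptor copies are not compared with each other.

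Mas1 encodes a receptor for a shorter angiotensin peptide whose actions oppose those of angiotensin II. It read 4.69, 5.18 and 4.56 in sham, 4.09, 3.71 and 4.34 in CBDL and 3.81, 4.23 and 4.44 in norUDCA-fed CBDL. The sham arrays lie above the other 6 arrays, and the ligated groups overlap. Its difference of -0.76 between CBDL and sham (SE 0.22, adjusted p = 0.0335) was called, but only 19.6% of genes were dimmer, and signal above background is not shown. The call ended without sham_158 (adjusted p = 0.0589), sham_159 (0.111), CBDL_164 (0.0771), CBDL_165 (0.116) or norUDCA_CBDL_175 (0.0511). It also ended with array weights (adjusted p = 0.071), only the 6 arrays compared (0.0513) or all rows tested (0.0771). Without both sham_159 and CBDL_165 the adjusted p was 0.246. NorUDCA-fed CBDL differed from CBDL by 0.12 (SE 0.22, adjusted p = 0.863) and from sham by -0.65 (SE 0.22, adjusted p = 0.175).

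Atp6ap2 encodes the prorenin receptor, which is also an accessory subunit of the vacuolar proton pump. Its signals were 9.73, 9.83 and 9.75 in sham, 9.65, 9.43 and 9.65 in CBDL and 9.73, 9.77 and 9.72 in norUDCA-fed CBDL. The CBDL arrays were the lowest of the 9, with a small difference from sham of -0.19 (SE 0.10, 95% confidence interval -0.40 to 0.02, adjusted p = 0.199).

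**Figure D2:**
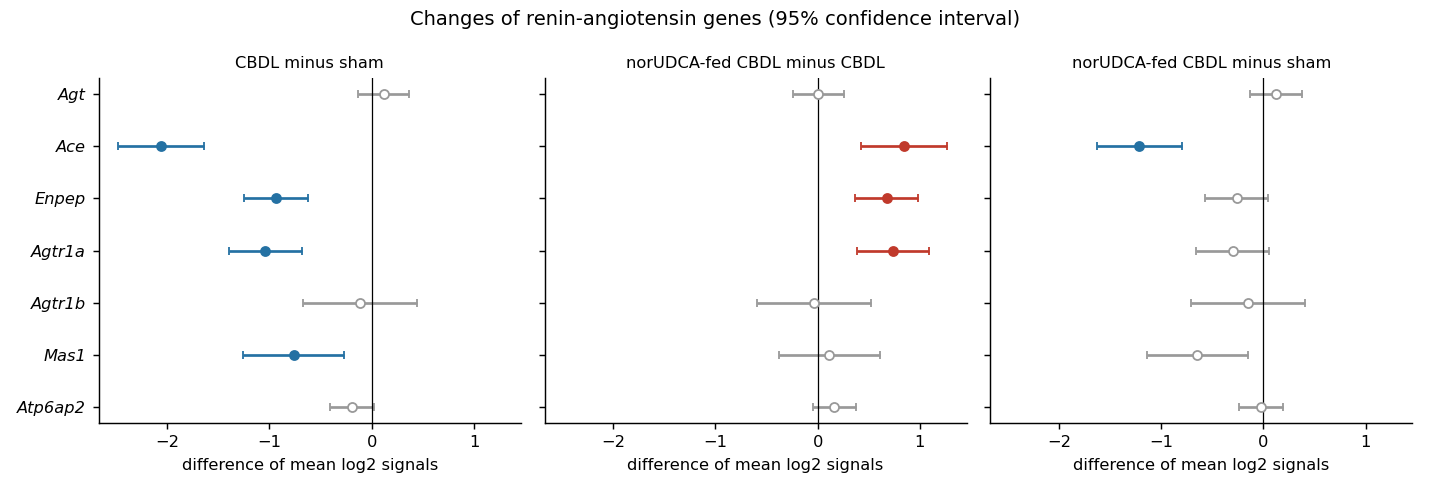
Difference of mean log2 signals for each renin-angiotensin gene in the 3 comparisons, with the 95% confidence interval of the fit. Filled points passed the test (blue lower, red higher) and open points did not. Ace at -2.06 is the largest decrease after ligation and the gene that also passed, at -1.21, in norUDCA-fed CBDL against sham.

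Against CBDL, Ace, Enpep and Agtr1a rose in norUDCA-fed CBDL, none of the 7 genes fell, and Agt, Agtr1b, Mas1 and Atp6ap2 did not pass. Over all genes 6.8% were called in that comparison, 3.61% higher and 3.2% lower, and 19.3% had an unadjusted p under 0.05. The 7 genes had a median difference of 0.16, beside 0.00 over all genes tested. Groups did not overlap for 4 of the 7 genes, beside 24.2% of all genes. Each of the 3 calls ended without CBDL_164, CBDL_165, norUDCA_CBDL_172, norUDCA_CBDL_175 or norUDCA_CBDL_179, and 0 of the 7 genes were then called. The highest adjusted p over these was 0.114 for Ace, 0.0996 for Agtr1a and 0.0816 for Enpep, while the differences stayed at or above 0.69, 0.60 and 0.56. With only the 6 arrays of this comparison in the fit, 0 genes were called as well (adjusted p = 0.0765 for Ace, 0.0577 for Agtr1a and 0.0517 for Enpep).

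Against sham, Ace was the 1 gene of 7 called in norUDCA-fed CBDL, where 3.18% of all genes were called, 1.82% higher and 1.37% lower, and 16.3% had an unadjusted p under 0.05. Its call ended without norUDCA_CBDL_172 (adjusted p = 0.0533) or norUDCA_CBDL_179 (0.0526), with the difference between -1.31 and -1.10 over the 9 fits that leave out 1 array. The median of the 7 genes was -0.26, beside -0.05 over all genes. Groups did not overlap for 4 of the 7, beside 22.5% of all genes. The 3 comparisons share arrays, so their calls are not independent of each other.

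Within an array, Ace differed from sham by more than Enpep and Agtr1a did. Its signal minus that of Enpep ranged from 0.66 to 0.86 in sham, from -0.42 to -0.20 in CBDL and from -0.37 to 0.03 in norUDCA-fed CBDL. This log2 ratio shifted by -1.12 after ligation and by -0.95 between norUDCA-fed CBDL and sham, without overlap in either case (exact permutation p = 0.1, two-sided, the smallest that 3 against 3 arrays allow, and 0.2 adjusted over 18 such comparisons). Ace minus Agtr1a shifted by -1.02 and -0.91 in the same comparisons (exact p = 0.1 each, 0.2 adjusted). Agtr1a minus Enpep differed by -0.10 after ligation with overlapping groups (exact p = 0.4, 0.514 adjusted). Such ratios show unequal change and say nothing of the amounts of these transcripts. These ratios, and those to the tubule markers below, were chosen after the data were seen. With 3 against 3 arrays no adjusted p could be under 0.1, so the permutation test cannot decide and the shifts are given as a description.

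Proximal tubule markers changed in the same direction as Ace and Enpep in CBDL against sham and in norUDCA-fed CBDL against CBDL. All 13 of those measured fell in CBDL (median -1.03), 7 rose in norUDCA-fed CBDL against CBDL (median 0.98) and 0 of the 13 were called by limma against sham (median -0.28), where 2 had an unadjusted p under 0.05. The shares of all genes called in these comparisons were 21.8%, 6.8% and 3.18%, in that order. In norUDCA-fed CBDL 12 of the 13 markers were still lower than in sham, and the 2 groups did not overlap for 7, beside 22.5% of all genes. Against sham up to 2 markers were called without 1 array and up to 3 under the other alternatives. The log2 of the markers' summed signal ranged from 16.03 to 16.09 in sham, from 14.34 to 15.24 in CBDL and from 15.68 to 15.73 in norUDCA-fed CBDL. The count of 7 markers that rose in norUDCA-fed CBDL against CBDL was 0 without CBDL_164, norUDCA_CBDL_172, norUDCA_CBDL_175 or norUDCA_CBDL_179 and 12 without CBDL_170. In whole tissue, fewer cells of a type and less RNA per cell cannot be told apart. The part of the tubule markers in the changes of Ace, Enpep and Agtr1a was not tested beyond the ratios that follow.

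**Figure D3:**
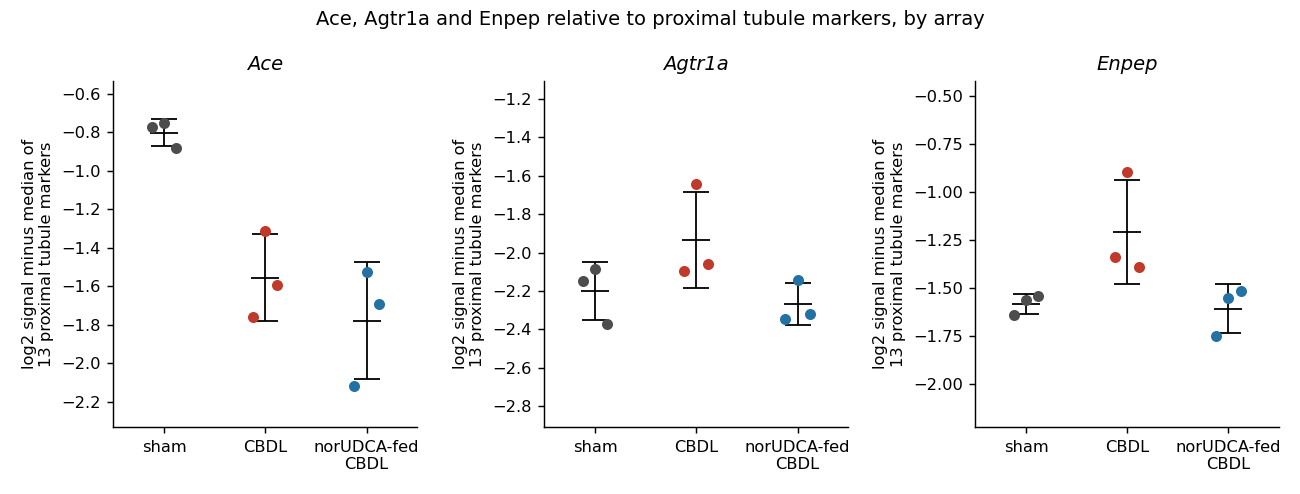
Log2 signal of Ace, Agtr1a and Enpep minus the median log2 signal of 13 proximal tubule markers on the same array. Points are arrays, and the line and bar give the mean and SD over 3 arrays. Ace is lower relative to the marker median on all 6 ligated arrays (-2.12 to -1.31) than on the sham arrays (-0.88 to -0.75), while Agtr1a and Enpep are not.

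Relative to the median of these markers Ace shifted by -0.75 in CBDL and by -0.98 in norUDCA-fed CBDL against sham, without overlap (exact permutation p = 0.1 each, 0.2 adjusted). Enpep shifted by 0.37 in CBDL (exact p = 0.1, 0.2 adjusted) and by -0.03 in norUDCA-fed CBDL (exact p = 0.9) against sham. For Agtr1a the shifts were 0.27 (exact p = 0.2, 0.327 adjusted) and -0.07 (exact p = 0.7, 0.741 adjusted). Between norUDCA-fed CBDL and CBDL the shifts were -0.22 for Ace (exact p = 0.5), -0.40 for Enpep and -0.34 for Agtr1a (exact p = 0.1 for each of these, 0.2 adjusted). Compared with sham, Ace read lower against the median of the tubule markers in both ligated groups, and neither Enpep nor Agtr1a did. Ace lay within the range of the single markers, whose differences from sham ran from -4.37 to -0.65 in CBDL and from -1.89 to 0.0086 in norUDCA-fed CBDL. Slc7a13, an amino acid transporter, was below Ace in both comparisons, and Slc22a6, an organic anion transporter, was below it in CBDL (-2.55).

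Ace is also made by endothelium, and 1 of 10 endothelial markers, Kdr, the main VEGF receptor, fell in CBDL (-0.90, SE 0.13, adjusted p = 0.000872), with 7 of the 10 higher and a list median of 0.12. The log2 of the summed endothelial signal was 13.07 to 13.24 in sham, 13.14 to 13.38 in CBDL and 13.24 to 13.29 in norUDCA-fed CBDL. Between 1 and 6 of the 10 were called over the alternatives, 2 without sham_159 and 3 without CBDL_170. The share of all genes called in CBDL was 21.8%, 10.3% higher and 11.5% lower. Agtr1a is expressed by mesangial and vascular cells as well as tubules. Of 8 juxtaglomerular, mesangial and pericyte markers 3 rose (Pdgfrb, Des and Mcam), none fell and 5 did not pass, with a list median of 0.25. Among those not called, Itga8 was lower by -0.16 (SE 0.14, adjusted p = 0.482). Between 2 and 3 of the 8 were called over the alternatives. Their summed log2 signal was 10.67 to 11.01 in sham, 11.38 to 11.54 in CBDL and 11.09 to 11.13 in norUDCA-fed CBDL. Of 6 podocyte markers, a cell type that carries aminopeptidase A, Plce1 rose and Nphs1 fell in CBDL, while 1 gene in all was called without any 1 of the first 5 arrays (3 sham, CBDL_164 and CBDL_165). What these cell types contribute to the changes of Ace, Agtr1a and Enpep was not tested.

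The genes whose signals ran most like those of the members over the 9 arrays, among genes at or above the median signal, were found by Pearson's r, given as a description over arrays that share the same 3 groups. For Ace they were Tango2 (r = 0.995), Gatb (r = 0.994) and Inmt (r = 0.992). Agtr1a ran with Kdr (r = 0.993), Zdhhc9 (r = 0.993) and Adtrp (r = 0.992). For Enpep the nearest were Prkcz (r = 0.996), Ttc36 (r = 0.994) and Gucd1 (r = 0.993), and for Mas1 they were Ppp1r15b (r = 0.984), Csrnp3 (r = 0.973) and Vangl1 (r = 0.972).

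Of 19 other listed enzymes and receptors that handle angiotensin peptides, 17 were measured, and in CBDL none rose, 1 fell and 16 did not pass (median -0.19, beside 21.8% called and a median of -0.06 over all genes). The gene that fell was Anpep, aminopeptidase N, which acts on angiotensin III at the brush border and averaged 10.75 ± 0.11 in sham, 9.25 ± 0.49 after ligation and 10.24 ± 0.23 with norUDCA before it (SD, n = 3 each). Its differences were -1.51 after ligation (SE 0.22, adjusted p = 0.000991) and 0.998 between norUDCA-fed CBDL and CBDL (SE 0.22, adjusted p = 0.0279), where it was the only one of the 17 called, beside 6.8% of all genes. That second call ended without CBDL_164 (adjusted p = 0.0712), norUDCA_CBDL_172 (0.0586), norUDCA_CBDL_175 (0.115) or norUDCA_CBDL_179 (0.0813). It also ended with only the 6 arrays compared (adjusted p = 0.0786), all rows tested (0.085) or without both sham_159 and CBDL_165 (0.0546). Against sham, norUDCA-fed CBDL had 0 of the 17 called by limma, beside 3.18% of all genes. There 2 of the 17 had an unadjusted p under 0.05, and 1 was called with array weights. Mme, or neprilysin, another brush border peptidase of this list with a bright signal, differed by -0.20 between CBDL and sham (SE 0.10, adjusted p = 0.214). Agtr2, the type 2 receptor of angiotensin II, averaged 5.09 ± 0.08 over the sham arrays against 4.79 ± 0.35 over the CBDL arrays (SD, n = 3 each; limma adjusted p = 0.24), and it was called without CBDL_165 (adjusted p = 0.0407), which made the count for CBDL 2, as did leaving out norUDCA_CBDL_172. For Agtr2 28% of genes were dimmer, and signal above background is not shown. Lnpep has no single-symbol row and was not analysed here.

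Of the genes that mark renin cells or control renin release, 14 of 18 were measured, and in CBDL 2 rose, 2 fell and 10 did not pass (median -0.10). That share lies near the 21.8% of all genes called, where 10.3% of all genes rose and 11.5% fell. Akr1b7, Adrb1, Adora1 and Cyp2c44 of this list have no single-symbol row, and neither has Ren1, so renin itself is not shown here. Not called were Nos1 (-0.21, SE 0.12, adjusted p = 0.24) and Gja5 (-0.16, SE 0.12, adjusted p = 0.398). For Nos1 34.5% of genes were dimmer, and for Gja5 48.4%. Ptgs2, the inducible cyclooxygenase whose macula densa prostaglandins stimulate renin, rose from 5.09 ± 0.44 to 6.81 ± 0.30 (SD, n = 3 each), a difference of 1.72 (SE 0.23, adjusted p = 0.000574). Ptger4, a prostaglandin E2 receptor found on juxtaglomerular cells, rose by 1.14 (SE 0.13, adjusted p = 0.000271). The transcription factor genes Vdr, the vitamin D receptor that restrains renin, and Nr1h3, an oxysterol receptor, fell by 0.45 (SE 0.09, adjusted p = 0.00635) and by 0.74 (SE 0.16, adjusted p = 0.00738). Vdr was bright in whole kidney, with 98.7% of genes dimmer. Which cells gave the Vdr and Nr1h3 signals was not tested. In norUDCA-fed CBDL against CBDL, Ptger4 fell by 0.64 (SE 0.13, adjusted p = 0.0214) and Ptgs2 differed by -0.84 (SE 0.23, adjusted p = 0.0595). Ptger4 was the only 1 of the 14 called there, beside 6.8% of all genes. The Ptger4 call ended without any 1 of the arrays CBDL_164, CBDL_165, norUDCA_CBDL_172, norUDCA_CBDL_175 and norUDCA_CBDL_179 (adjusted p between 0.0537 and 0.0841), and the count for the 14 genes was 2 without sham_159 or sham_160. Macrophages also express Ptgs2 and Ptger4, and all 10 macrophage markers rose in CBDL (median 2.26) and 9 fell in norUDCA-fed CBDL against CBDL (median -1.14). Their summed log2 signal ranged from 10.74 to 11.23 in sham, from 12.49 to 13.38 in CBDL and from 11.74 to 11.85 in norUDCA-fed CBDL, and its part in these changes was not tested. That count of 9 was 3 without CBDL_164, 2 without norUDCA_CBDL_175 and 5 without CBDL_165, norUDCA_CBDL_172 or norUDCA_CBDL_179.

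**Figure D4:**
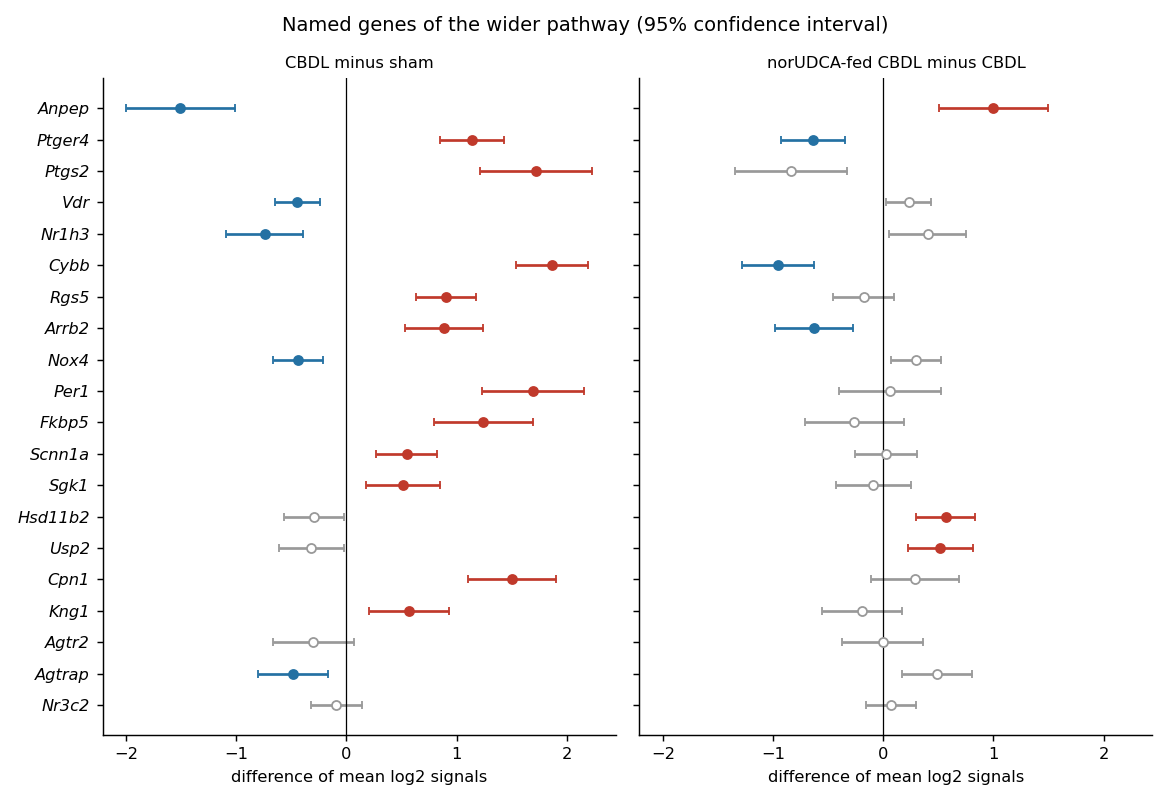
Difference of mean log2 signals for the named genes of the wider pathway, CBDL minus sham on the left and norUDCA-fed CBDL minus CBDL on the right, with 95% confidence intervals. Filled points passed the test (blue lower, red higher) and open points did not. Anpep at -1.51 and 0.998 moved in opposite directions in the 2 panels, and Per1 at 1.69 and 0.06 was called on the left alone.

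Of 14 genes of signalling and feedback downstream of the type 1 receptor, 5 rose, 3 fell and 6 did not pass in CBDL (median 0.16, beside 21.8% of all genes called), and 5 in all were called without sham_160. Cybb, the phagocyte NADPH oxidase subunit, rose by 1.87 (SE 0.15, adjusted p = 4.61e-05), Rgs5, a pericyte regulator of G protein signals, by 0.91 (SE 0.12, adjusted p = 0.000635) and Arrb2, an arrestin that takes up activated receptors, by 0.89 (SE 0.16, adjusted p = 0.00297). Of 10 macrophage markers, 10 rose in CBDL and 9 fell in norUDCA-fed CBDL against CBDL. Their part in the changes of Cybb was not tested. Nox4, the NADPH oxidase of tubular cells, fell by 0.44 (SE 0.10, adjusted p = 0.0117). Agtrap, whose product binds the type 1 receptor and promotes its internalisation, fell by 0.48 (SE 0.14, adjusted p = 0.0368). Leaving out any of 7 arrays singly took Agtrap past the threshold, with an adjusted p of 0.114 at most. So did using only the 6 arrays compared, a second quantile normalization, testing all rows and leaving out both sham_159 and CBDL_165. In norUDCA-fed CBDL against CBDL, Cybb fell by 0.95 (SE 0.15, adjusted p = 0.00931) and Arrb2 by 0.63 (SE 0.16, adjusted p = 0.045), and Cybb alone was called without any 1 of 8 arrays. The count for the 14 genes was 2, beside 6.8% of all genes, and 4 without CBDL_170. Compared with sham, 2 of the 14 were called in norUDCA-fed CBDL, beside 3.18% of all genes. These were Cybb at 0.91 (adjusted p = 0.0118) and Rgs5 at 0.73 (adjusted p = 0.0136), and 0 of the 14 were called by limma without norUDCA_CBDL_172 or norUDCA_CBDL_179.

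Aldosterone lies at the end of the pathway and acts through the mineralocorticoid receptor in the distal nephron. Of 14 genes listed for that response 13 were measured, and 4 rose, none fell and 9 did not pass in CBDL (median 0.05, beside 21.8% of all genes called). Per1, a clock gene that aldosterone and glucocorticoids also induce, averaged 7.76 ± 0.25 in sham, 9.46 ± 0.24 after ligation and 9.52 ± 0.38 with norUDCA before it (SD, n = 3 each). Its differences from sham were 1.69 (SE 0.21, adjusted p = 0.000376) and 1.76 (SE 0.21, adjusted p = 0.00314). Fkbp5, a steroid receptor co-chaperone, rose by 1.24 (SE 0.20, adjusted p = 0.00168), Scnn1a, the alpha subunit of the epithelial sodium channel, by 0.55 (SE 0.13, adjusted p = 0.011) and Sgk1, a kinase that keeps that channel at the membrane, by 0.52 (SE 0.15, adjusted p = 0.0346). Sgk1 lost its call without sham_158, sham_160, CBDL_165 or CBDL_170 (adjusted p between 0.0783 and 0.114). It also lost it with only the 6 arrays compared, with all rows tested or without both sham_159 and CBDL_165. Nr3c2, the receptor gene, averaged 7.88 ± 0.03 over the sham arrays against 7.79 ± 0.16 over the CBDL arrays (SD, n = 3 each; limma adjusted p = 0.591).

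In norUDCA-fed CBDL against CBDL, 2 of these 13 rose and none fell, beside 6.8% of all genes called, 3.61% higher and 3.2% lower. Hsd11b2, the enzyme that shields the receptor from glucocorticoids, rose by 0.57 (SE 0.12, adjusted p = 0.0244) and Usp2, a deubiquitinase, by 0.52 (SE 0.13, adjusted p = 0.0454). The count was 0 without CBDL_164, CBDL_165, norUDCA_CBDL_172 or norUDCA_CBDL_179 and 1 without sham_158 or norUDCA_CBDL_175. Against sham, Per1, Fkbp5 (0.98, adjusted p = 0.0314) and Scnn1a (0.57, adjusted p = 0.0403) were called, beside 3.18% of all genes. Per1 alone was called without sham_158, sham_159, norUDCA_CBDL_172 or norUDCA_CBDL_179.

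The kallikrein-kinin system meets the renin-angiotensin system at angiotensin-converting enzyme, which destroys kinins. Of 6 measured genes, 2 rose and none fell in CBDL (median 0.09, beside 21.8% of all genes called). Cpn1, a carboxypeptidase subunit that also cuts kinins, averaged 7.02 ± 0.05 in sham, 8.52 ± 0.39 after ligation and 8.81 ± 0.17 with norUDCA before it (SD, n = 3 each), with differences from sham of 1.505 (SE 0.18, adjusted p = 0.000318) and 1.79 (SE 0.18, adjusted p = 0.00126). Kng1, a kininogen gene with a near relative in mouse, rose by 0.57 (SE 0.16, adjusted p = 0.0308), and it was no longer called without sham_159 (adjusted p = 0.0882), CBDL_164 (0.0565) or CBDL_170 (0.0917). Nor was it called with only the 6 arrays compared, with arrays centred on their median or with all rows tested. For Kng1 38% of genes were dimmer, and signal above background is not shown. The brighter relative, Kng2, differed by 0.0055 between CBDL and sham (SE 0.11, adjusted p = 0.979). None of the 6 was called by limma between norUDCA-fed CBDL and CBDL, beside 6.8% of all genes. There 0 of the 6 had an unadjusted p under 0.05, and 1 was called without CBDL_170.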

How the data were processed

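Per the labels' protocols, TRIzol was used to extract kidney RNA and an Affymetrix whole-transcript kit to label it. The deposited values are log2 signals that the authors made with RMA in Partek 6.6, per the submitters' processing notes. The genome build behind the rows and any filter or batch step are not given in the sources used here. All 41345 rows were used as deposited, and 23521 carry 1 gene symbol. The brightest row over the 9 arrays stood for each of 22180 genes. Means per group and their differences were fitted in limma 3.58.1 (R 4.3.3) over 9 arrays, with 6 residual and 3.77 prior degrees of freedom, and two-sided p-values were adjusted by Benjamini-Hochberg over all genes. Precision is limited by 3 arrays a group.

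The genes and lists were chosen with earlier results of these data known. Named genes were all members, up to 4 called genes with the lowest p per pathway list and comparison (CBDL against sham, and norUDCA-fed CBDL against CBDL), and Agtr2, Agtrap, Ptgs2 and Nr3c2. From each marker list it took at most the 3 brightest genes, and for members called in CBDL the 3 genes of highest r. Des, Itga8, Plce1, Nphs1, Slc7a13, Slc22a6, Mme, Nos1, Gja5, Ttr and Kng2 were named after their values were seen. Lists of mast cell, hepatocyte, adipose, adrenal and smooth muscle genes were also counted. A planned within-array ratio is not reported here, and ratios of Ace to Enpep, Agtr1a and tubule markers were added after the data were seen.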

Additional observations from a re-analysis of the deposited data

How the results depend on the processing

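The fit was repeated with 19 alternatives, 9 of processing, 9 that leave out 1 array and 1, added after the data were seen, without sham_159 and CBDL_165. The decreases of Ace, Enpep and Agtr1a in CBDL were called under all 19, with Ace between -2.28 and -1.85. In CBDL against sham, the count called of the 7 genes was 3 or 4. In norUDCA-fed CBDL against CBDL it was 0 with only the 6 arrays compared, 0 with all rows tested and 0 without sham_159 and CBDL_165, and between 0 and 3 over the fits that leave out 1 array. Testing all rows adjusts over 41345 values, and leaving out arrays lowers the number of samples. Without CBDL_165 the differences themselves were smaller, at 0.69 for Ace, 0.60 for Agtr1a and 0.56 for Enpep. Why these calls were lost was not tested. Against sham the count called was between 0 and 1 over the fits that leave out 1 array.

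Signs turned for differences that were not called. With array weights, Agtr1b was 0.076 in CBDL against sham, 0.061 in norUDCA-fed CBDL against CBDL and 0.14 against sham, and Mas1 was -0.0059 in norUDCA-fed CBDL against CBDL. Without sham_159 and CBDL_165 the Agtr1b values were 0.14, 0.053 and 0.19, Mas1 was -0.055 in norUDCA-fed CBDL against CBDL and Atp6ap2 0.0034 against sham. After a second quantile normalization Atp6ap2 was 0.0058 against sham. Over the fits that leave out 1 array, Agtr1b ran from -0.29 to 0.23, from -0.092 to 0.071 and from -0.33 to 0.19 in the 3 comparisons. In norUDCA-fed CBDL against CBDL, Agt ran from -0.059 to 0.11 and Mas1 from -0.055 to 0.29, and Atp6ap2 ran from -0.047 to 0.0034 against sham. The causes were not tested. Over all genes, norUDCA-fed CBDL against CBDL had 1509 called, 912 with only the 6 arrays compared, 471 with all rows tested, 749 without sham_159 and CBDL_165, and 278 to 2043 over the fits that leave out 1 array. NorUDCA-fed CBDL against sham had 706, 1638 with array weights, 317 with all rows tested and 156 to 822 over the fits that leave out 1 array.

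No paired analysis was possible because the groups share no replicate numbers. The mean of a gene's rows gave the members' own values, since each has 1 row. Agtr1b and Mas1 gave no value with dim genes left out.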

Other observations

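Markers of other cells gave these values beside the renin-angiotensin genes. None of 8 mast cell markers, whose chymases can form angiotensin II, was called by limma in CBDL against sham, where 3 had an unadjusted p under 0.05, and their median difference was -0.05. With array weights, or without CBDL_170 or norUDCA_CBDL_172, 1 of the 8 was called. Of 8 hepatocyte markers, from a cell type that makes most circulating angiotensinogen, 4 fell and 1 rose in CBDL, with differences from -2.07 to 2.48. The lowest difference was that of Ttr, which was bright in these kidney samples (11.40 in sham, 97% of genes dimmer). Whether the signal of this list comes from hepatocytes was not tested. Of 8 adipose markers 4 were called, 3 of them higher. Leaving out 1 array gave 3 to 5 called on either list. The other alternatives gave 4 to 5 hepatocyte and 2 to 4 adipose markers called. Over all genes 21.8% were called in CBDL against sham, 10.3% higher and 11.5% lower. Of 7 vascular smooth muscle markers 4 rose and 1 fell in CBDL, and 2 in all were called without CBDL_165 and 3 without sham_158 or sham_160.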
